A study of Mus musculus with 8 samples.

Results

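The protein-coding genes of a stretch of chromosome 4 within the diabetes region Idd9, whose known subregions also reach beyond the stretch, were compared between NOD/ShiLtJ (NOD) and C57BL/6J thymocytes. Members were taken by position, as protein-coding genes of GENCODE M21 that start between 128 and 145 Mb of chromosome 4 (GRCm38) and had 50 or more reads summed over the 8 libraries. The window held 306 protein-coding genes in the count tables, of which 136 had fewer reads (41 of them listed at 0 in every library) and 11 were set aside by name, among them the kinase gene Lck, the transcription factor genes Runx3 and Id3, the Eph receptor genes Epha2 and Ephb2, the remodeller gene Arid1a, and genes whose symbols start with Zfp, Rpl or Rps. This left 159 members of 53465 listed genes. The members nearest the read minimum were Padi1 with 61 and Asap3 with 65 reads, and the genes just under it were Kif17 and Ptafr with 49 reads each. All 159 also passed the low-count filter of the test, so the counts below cover every member.

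Double-positive thymocytes (CD4+ CD8+) were sorted live by flow cytometry for total RNA-seq from the thymi of NOD/ShiLtJ mice, which develop autoimmune diabetes spontaneously, and of C57BL/6J mice, an inbred strain that does not. No treatment, transgene, age or sex is given in the labels for either strain. There were 4 libraries per strain, and those sharing a B number in their titles were summed, which gave 2 NOD and 2 C57BL/6J samples. Nothing in the labels says that these are separate animals, so each p-value reflects the spread of these samples alone, and that spread may be technical.

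Idd loci are stretches of the mouse genome at which the NOD allele and the allele of a resistant strain change the risk of diabetes. At Idd9, NOD mice that carry the region from a resistant strain are known to be protected, and genes of lymphocyte signalling in the region have been studied as candidates. Double-positive thymocytes are the stage at which Tcra is rearranged and selection on the complete T cell receptor begins.

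The NOD libraries held 23.5 to 30.4 M reads in genes and the C57BL/6J libraries 8.53 to 15.7 M. The members took 1.17% to 1.44% of these reads in NOD libraries and 1.29% to 1.38% in C57BL/6J libraries. The genes of the sorted surface proteins were detected in every sample. Cd4 stood at 1246 and 1340.02 CPM (read counts relative to library size, scaled by the TMM method) in NOD samples against 1364 and 1139 CPM in C57BL/6J samples, and Cd8a at 1682 and 1639 CPM in NOD samples against 1648 and 1478 CPM in C57BL/6J samples. Cd8b1, the other CD8 chain, stood at 1147 and 1005 CPM in NOD samples against 1872 and 1587 CPM in C57BL/6J samples (log2 fold change -0.68). Rag1, a recombinase gene of this stage, stood at 6573 and 5230 CPM in NOD samples against 9560 and 8436 CPM in C57BL/6J samples (-0.61), and the log2 fold changes were -0.33 for its partner Rag2, -0.52 for Dntt and 0.39 for Cd3e. None of these 7 genes was called, and the smallest adjusted p in edgeR was that of Cd8b1 (0.0911). NOD sample 1 stood apart in proliferation markers: the summed level of Mki67, Top2a, Pcna, Mcm3, Cdk1, Ccnb1 and Birc5, picked after their values were seen, was 785 CPM in NOD sample 1 and 3862 CPM in NOD sample 2, against 3195 and 3739 CPM in C57BL/6J samples 1 and 2. In these bulk samples, fewer cells of a kind and less RNA per cell cannot be told apart. Results are therefore also given without NOD sample 1 where that changes a call.

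Few members were called different between the strains, and a member not called may still differ. Calls were made with the quasi-likelihood test of edgeR (two-sided, 2 samples per strain), at an adjusted p under 0.05 after Benjamini-Hochberg correction over all 17291 tested genes. By this rule 3 of the 159 members were called (1.89%), against 3.68% of all tested genes, 3.37% of tested protein-coding genes and 2.83% of those on chromosome 4 outside the window. The gene called higher in NOD was Ubxn11, 1 of 159 members (0.629%) against 1.91% of all tested genes, 1.81% of protein-coding genes and 1.77% of those on chromosome 4 outside the window. Those called lower were Pink1 and Padi3, 2 of 159 (1.26%) against 1.78%, 1.56% and 1.06% of the same sets. At an unadjusted p under 0.05 there were 16 members (10.1%), 4 higher and 12 lower, against 13.1% of all tested genes, 11.6% of protein-coding genes and 12.5% of those elsewhere on chromosome 4. The called share of the window is no larger than the background, so the count by itself is not a result about these genes.

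Ubxn11 encodes a UBX-domain protein, of a family known to bind the segregase p97, and it lies on the plus strand of chromosome 4 at 134102570 to 134127593 (ENSMUSG00000012126). It stood at 16.6 and 18.01 CPM in NOD samples 1 and 2, against 5.04 and 5.998 CPM in C57BL/6J samples 1 and 2. The strains were far apart relative to the spread within them, and each of the 4 NOD libraries (15.6 to 18.3 CPM) lay above each of the 4 C57BL/6J libraries (4.48 to 6.23 CPM). The level was 3.13-fold higher in NOD (log2 fold change 1.65 ± 0.27 SE, 95% interval 1.04 to 2.26, edgeR adjusted p = 0.0105). With C57BL/6J sample 1 left out the log2 fold change was 1.52 and the adjusted p 0.108, and with NOD sample 1 left out it was 0.000787. Ubxn11 overlaps Sh3bgrl3 on the opposite strand, a member with 20959 reads in all against 2073 for Ubxn11. The overlap covers only the 3′ ends of the genes, from 134127406 to 134127593. Whether reads were counted by strand is not given in the sources used here, and the reads within the overlap were not counted apart. Sh3bgrl3 itself was not called (log2 fold change -0.22 ± 0.19, edgeR adjusted p = 0.749).

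Pink1 encodes the mitochondrial kinase that marks damaged mitochondria for removal together with the ubiquitin ligase Parkin, and it lies on the minus strand at 138313409 to 138326307 (ENSMUSG00000028756). Its level was 41.1 and 49.99 CPM in NOD samples 1 and 2, against 107 and 75.9 CPM in C57BL/6J samples 1 and 2. NOD samples were both lower, although the C57BL/6J samples differed from each other by more than the NOD samples did. The libraries spanned 38.1 to 52.6 CPM in NOD and 73.3 to 113.9 CPM in C57BL/6J without overlap. The log2 fold change was -1.004 ± 0.21 (95% interval -1.48 to -0.53, edgeR adjusted p = 0.0324). With C57BL/6J sample 1, the higher of the pair, left out, the log2 fold change was -0.74 and the adjusted p 0.320. With NOD sample 1 left out the adjusted p was 0.00671.

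Padi3 encodes a peptidylarginine deiminase, an enzyme that turns arginine in proteins into citrulline, and this family member is known from hair follicles and skin. It lies on the minus strand at 140785365 to 140810648 (ENSMUSG00000025328). The level was low in both strains, at 0.545 and 1.27 CPM in NOD samples 1 and 2, against 4.86 and 3.49 CPM in C57BL/6J samples 1 and 2, from 294 reads in all. The samples of the strains did not overlap, and NOD sample 2 was the higher of the NOD samples. The log2 fold change was -2.19 ± 0.50 (95% interval -3.32 to -1.05, edgeR adjusted p = 0.0490), just under the threshold. Leaving out NOD sample 1 gave an adjusted p of 0.106 and a log2 fold change of -1.71. Leaving out C57BL/6J sample 1 gave 0.303 and -1.93, and leaving out C57BL/6J sample 2 gave 0.0940 and -2.41. Padi3 was called in 9 of 17 alternative settings.

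**Figure D1:**
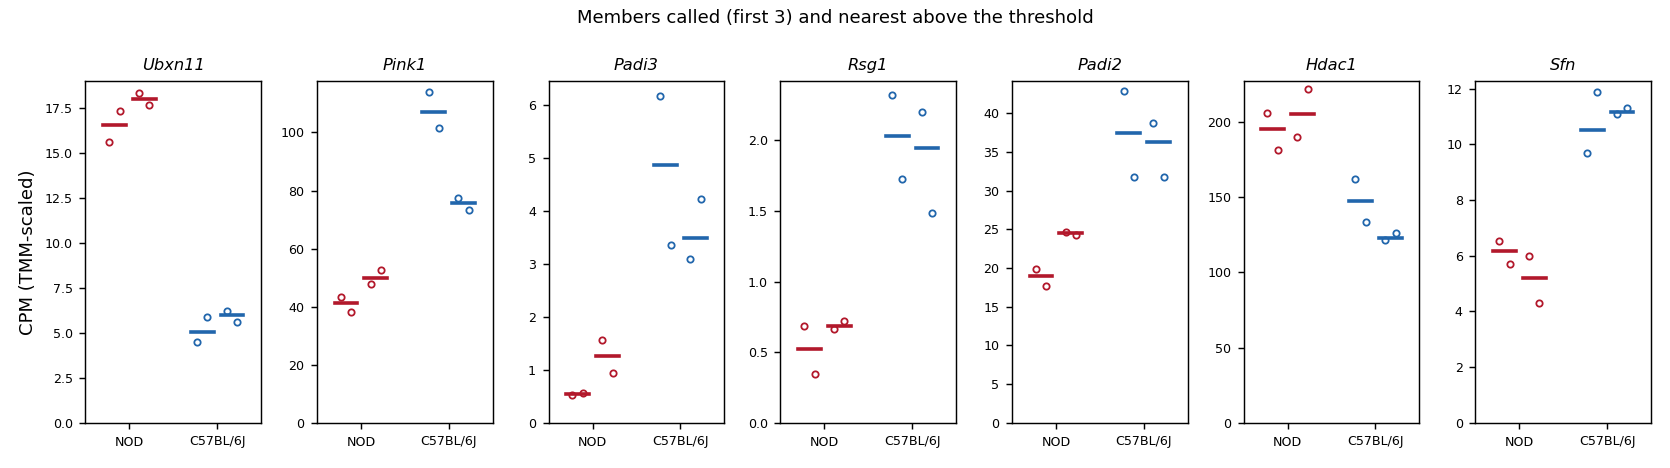
TMM-scaled CPM on the y axis of each panel, from 0, for Ubxn11, Pink1 and Padi3 (called) and for Rsg1, Padi2, Hdac1 and Sfn (nearest above the threshold), with NOD left and C57BL/6J right; bars are the 2 summed samples of a strain and open points their libraries. In each panel the 4 NOD libraries and the 4 C57BL/6J libraries do not overlap, with Ubxn11 at 15.6 to 18.3 CPM in NOD and 4.48 to 6.23 CPM in C57BL/6J.

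The promoters of the 3 called genes are shown as the place where a regulatory difference between the strains could be looked for. They run from 250 bases before to 50 bases after the start in RefSeq (GRCm38.p6, the C57BL/6J reference sequence), 5′ to 3′ on the gene's strand, at chr4:134102333-134102632 for Ubxn11, chr4:138326247-138326546 for Pink1 and chr4:140810599-140810898 for Padi3. Capitals mark exact matches, on either strand, to the RUNX letters TGTGGT, the ETS letters CCGGAA, the E-box letters CAGCTG and the TCF letters TTTGAT.
Ubxn11: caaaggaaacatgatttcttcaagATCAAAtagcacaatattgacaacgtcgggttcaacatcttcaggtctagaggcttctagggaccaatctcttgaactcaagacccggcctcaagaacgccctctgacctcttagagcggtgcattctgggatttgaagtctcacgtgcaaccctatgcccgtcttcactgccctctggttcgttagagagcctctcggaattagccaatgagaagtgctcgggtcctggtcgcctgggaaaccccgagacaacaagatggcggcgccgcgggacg
Pink1: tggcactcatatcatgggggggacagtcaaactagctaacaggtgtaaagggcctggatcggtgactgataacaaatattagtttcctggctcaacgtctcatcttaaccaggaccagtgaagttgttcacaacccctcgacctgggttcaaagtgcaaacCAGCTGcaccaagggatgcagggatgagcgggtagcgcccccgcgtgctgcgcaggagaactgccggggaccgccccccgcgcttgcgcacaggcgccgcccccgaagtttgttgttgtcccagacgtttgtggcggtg
Padi3: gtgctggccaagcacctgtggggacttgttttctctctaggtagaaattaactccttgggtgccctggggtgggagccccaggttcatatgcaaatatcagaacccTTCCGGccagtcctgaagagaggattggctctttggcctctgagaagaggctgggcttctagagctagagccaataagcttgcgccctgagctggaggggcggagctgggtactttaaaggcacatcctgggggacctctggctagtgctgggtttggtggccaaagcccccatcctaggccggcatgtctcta
Each held 1 match: TCF letters on the opposite strand in Ubxn11, the E-box letters in Pink1 and ETS letters on the opposite strand in Padi3. Such letters are common, in 11.9% (TCF), 16.3% (E-box) and 14.9% (ETS) of the 32851 promoters of the table, and RUNX letters were in 16.8%. Of the members, 131 of 159 had an entry, with 168 promoters. Of these promoters, 28.0% held the ETS letters, 19.6% the E-box, 10.7% the RUNX and 6.0% the TCF letters. Members had to have reads in these cells, and no such rule was applied to the promoters of the table. The shares are therefore not like for like, and their differences were not tested. A match is a description of the reference sequence and the NOD sequence was not used here.

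Along the chromosome, called members did not sit side by side. In steps of 1 Mb, Ubxn11 was in the step from 134 Mb, Pink1 in that from 138 Mb and Padi3 in that from 140 Mb, with 1 called member of 18, 10 and 8. The other 14 steps held no called member. Over all members the median log2 fold change was -0.05, against 0.02 over all tested genes and 0.04 over other coding genes of chromosome 4. The log2 fold change was above 0 for 66 members (41.5%) and below 0 for 93. By comparison, 52.3% of all tested genes, 52.4% of protein-coding genes and 54.4% of those elsewhere on chromosome 4 lay above 0. The read minimum was summed over both strains, and the NOD libraries were deeper. A low gene thus became a member more easily where NOD was higher. At a read minimum of 500 the median was also -0.05 (132 members). With NOD sample 1 left out the median was 0.04, and with NOD sample 2 left out it was -0.14, so its sign rests on NOD sample 1. The window opened with Zscan20, a zinc finger gene, at 42.5 and 36.3 CPM in NOD samples against 32.8 and 32.5 CPM in C57BL/6J samples (log2 fold change 0.27 ± 0.19, edgeR adjusted p = 0.661). It closed with Vps13d, a lipid transfer protein of mitochondria, at 516 and 413 CPM in NOD samples against 380 and 563 CPM in C57BL/6J samples, where the samples of a strain differed by more than the strain means did (edgeR adjusted p = 0.982).

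**Figure D2:**
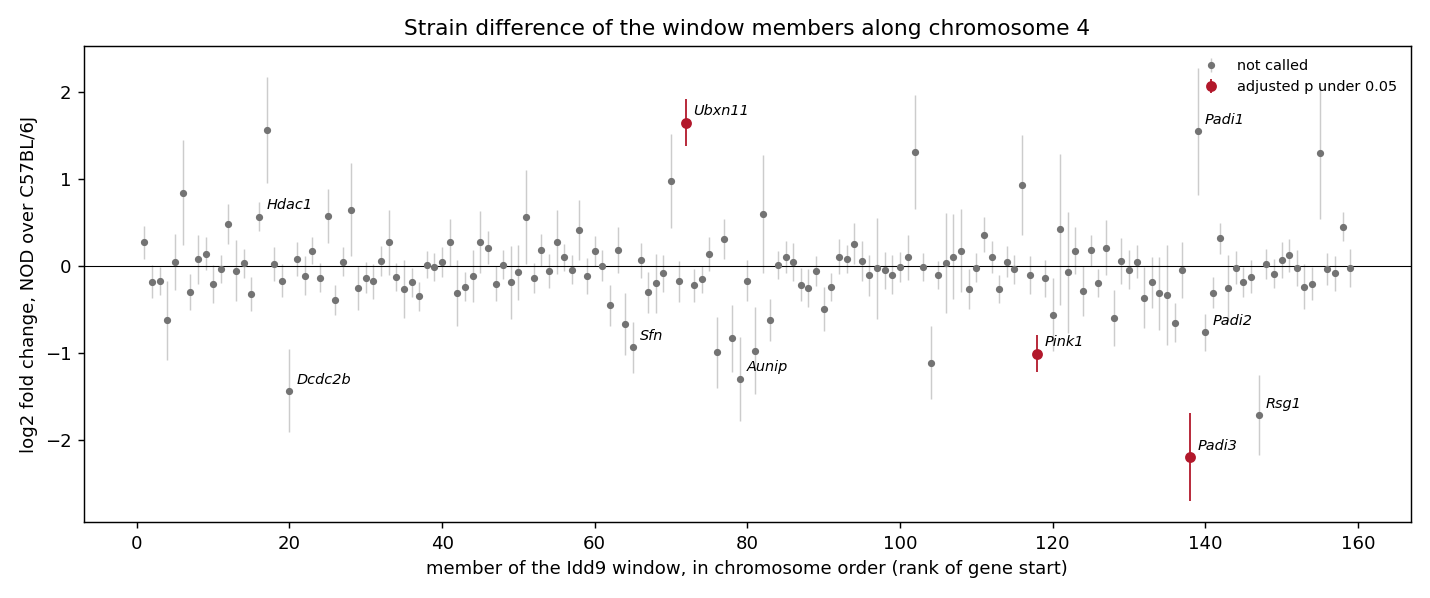
Log2 fold change, NOD over C57BL/6J, on the y axis for the 159 members, ordered by gene start on the x axis; points are the edgeR estimates, bars ± 1 SE and red points the called members. Ubxn11 stands at 1.65, Pink1 at -1.004 and Padi3 at -2.19, among members most of which lie within 0.5 of 0.

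For most members the intervals bound the difference between these samples, whose spread may be technical. The absolute log2 fold change was under 0.5 for 129 of 159 members (81.1%), and 1 or more for 11 (6.92%). The latter share was 12.5% of all tested genes, 8.91% of protein-coding genes and 9.54% of those elsewhere on chromosome 4. Of these 11 members, Fam167b, Padi1, Asap3 and Kazn had a mean under 1 CPM and were higher in NOD. The read minimum favours that direction in low genes, as the NOD libraries were deeper. The 95% interval of the log2 fold change lay within -1 and 1, a doubling either way, for 110 members (69.2%). That share was 46.0% of all tested genes, 64.5% of protein-coding genes and 63.6% of those elsewhere on chromosome 4. The members were also more abundant, with a median of 31.3 CPM against 9.35, 24.0 and 18.8 CPM in the same sets. Their median SE was 0.22, against 0.33, 0.23 and 0.25. These shares are therefore not compared at like abundance. Of the 116 members with a mean of 10 CPM or more, 105 had such an interval. For the other members the interval reached a 2-fold difference, and the adjusted p does not show that they were alike. The 4 NOD libraries lay all above or all below the 4 C57BL/6J libraries for 23 members (14.5%), against 17.0% of all tested genes, 17.4% of protein-coding genes and 18.4% of those elsewhere on chromosome 4. They lay above for 7 members (4.4%), against 8.2%, 9.27% and 11.5% of the same sets, and below for 16 (10.1%), against 8.84%, 8.08% and 6.89%.

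The members nearest above the threshold were Rsg1, Padi2, Hdac1 and Sfn, and none passed the test. Rsg1 encodes a small GTPase of cilium assembly and stood at 0.524 and 0.688 CPM in NOD samples against 2.03 and 1.95 CPM in C57BL/6J samples (log2 fold change -1.70 ± 0.46, 95% interval -2.74 to -0.67, edgeR adjusted p = 0.0919). Sfn, the 14-3-3 sigma adaptor, stood at 6.16 and 5.20 CPM in NOD samples against 10.5 and 11.1 CPM in C57BL/6J samples (-0.93 ± 0.29, edgeR adjusted p = 0.155). For both, every NOD library lay below every C57BL/6J library. Hdac1, a class I histone deacetylase that acts with Hdac2 in T cell development, was measured far more deeply, with 27337 reads in all. It stood at 195 and 205 CPM in NOD samples against 147 and 123 CPM in C57BL/6J samples, 1.48-fold higher (0.57 ± 0.17, 95% interval 0.19 to 0.95, edgeR adjusted p = 0.129), with no overlap of libraries.

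The peptidylarginine deiminase genes form 1 cluster within the window, in the order Padi4, Padi3, Padi1 and Padi2, with starts spread over 160 kb. Citrullinated proteins are targets of autoantibodies in human rheumatoid arthritis, and Padi4 is best known for citrullinating histones in neutrophils, while Padi2 is found in many tissues. Padi4 and Padi1 are described here as the neighbours of Padi3 and were picked after their values were seen. Padi2, the most abundant, stood at 18.95 and 24.5 CPM in NOD samples against 37.5 and 36.2 CPM in C57BL/6J samples (log2 fold change -0.76 ± 0.21, 95% interval -1.23 to -0.29, edgeR adjusted p = 0.0956). Its libraries did not overlap between the strains, and its adjusted p in edgeR was 0.0109 with NOD sample 2 left out and 0.305 with NOD sample 1 left out. A small nuclear RNA gene, Gm26226, lies within Padi2 on the same strand. Padi4 stood at 14.9 and 16.7 CPM in NOD samples against 21.6 and 11.1 CPM in C57BL/6J samples, so that the NOD samples lay between the C57BL/6J samples (-0.05 ± 0.32, edgeR adjusted p = 0.973). Padi1 was near the read minimum, at 0.461 and 0.547 CPM in NOD samples against 0.265 and 0.0811 CPM in C57BL/6J samples (1.55 ± 0.73, edgeR adjusted p = 0.428). A gene this low passes the minimum more easily where the deeper NOD libraries are higher. Of the cluster, then, Padi3 passed the test, just under the threshold, and the others did not. Among the 17 alternative settings Padi3 was called in 9, Padi2 in 4, and Padi4 and Padi1 in none. The difference between their strain effects was not tested.

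**Figure D3:**
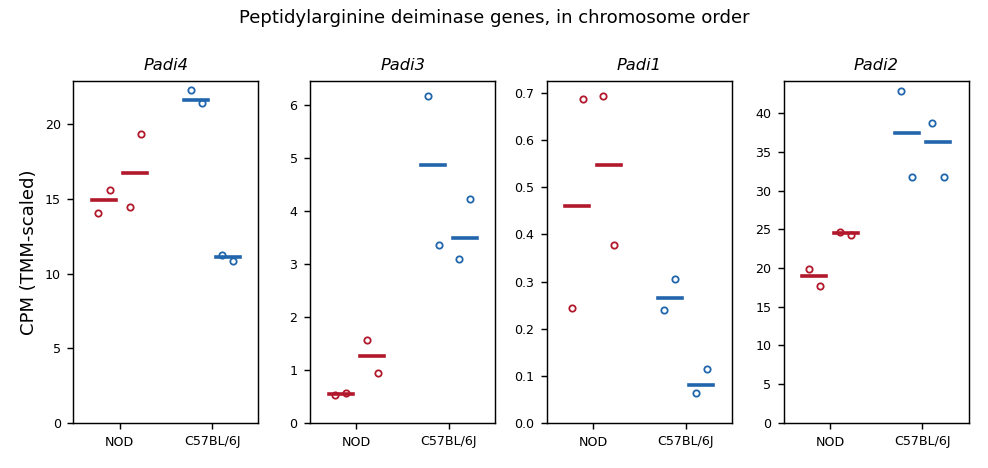
TMM-scaled CPM on the y axis of each panel, from 0 and with its own scale, for the 4 peptidylarginine deiminase genes in chromosome order, with NOD left and C57BL/6J right; bars are the 2 summed samples of a strain and open points their libraries. Padi3 and Padi2 show NOD libraries below all C57BL/6J libraries, and Padi4 shows the NOD samples between the C57BL/6J samples at 21.6 and 11.1 CPM.

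Among members with a mean of at least 1 CPM, the largest differences that did not pass the test, beside Rsg1, were those of Dcdc2b, Aunip, Luzp1 and Pafah2. Dcdc2b, a doublecortin-domain gene, stood at 0.985 and 0.917 CPM in NOD samples against 1.77 and 3.36 CPM in C57BL/6J samples (log2 fold change -1.43 ± 0.48, edgeR adjusted p = 0.185), and it overlaps the far more abundant Tmem234 on the opposite strand. Luzp1, a leucine zipper protein of the actin cytoskeleton, stood at 2.60 and 5.06 CPM in NOD samples against 6.36 and 10.2 CPM in C57BL/6J samples (-1.11 ± 0.42, edgeR adjusted p = 0.266). It overlaps Kdm1a, a histone demethylase gene on the opposite strand with 23067 reads against 806 for Luzp1. Pafah2, a phospholipase of platelet-activating factor, stood at 1.43 and 2.15 CPM in NOD samples against 3.36 and 3.77 CPM in C57BL/6J samples (-0.99 ± 0.41, edgeR adjusted p = 0.329). Aunip, a partner of the mitotic kinase Aurora A, stood at 1.01 and 2.52 CPM in NOD samples against 4.42 and 4.26 CPM in C57BL/6J samples (-1.29 ± 0.48, edgeR adjusted p = 0.262). These 4 had 222 to 806 reads each, so their intervals are wide.

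Members were next grouped by role. Over all tested genes 3.68% were called, so a short list without a call is by itself not a result about its role. Among 21 members of a broad list for immune receptors, ligands and signalling, none was called. Their median log2 fold change was -0.07, with 8 above 0 and 13 below. The list included Padi2, Padi4, Phc2, which also stood in the chromatin list, and Kazn. Its highest value, 1.30, was that of Kazn, from 75 reads. Laptm5, a lysosomal protein that lowers T cell receptor levels in mouse thymocytes, stood at 457 and 487 CPM in NOD samples against 530 and 499 CPM in C57BL/6J samples (-0.12 ± 0.16, 95% interval -0.49 to 0.24). Both NOD samples were lower, and a change of 1.5-fold or more lies outside the interval. Wasf2, the WAVE2 regulator of actin branching, stood at 311 and 367 CPM in NOD samples against 353 and 344 CPM in C57BL/6J samples (edgeR adjusted p = 0.958). Ptp4a2, a PRL-type phosphatase, stood at 303 and 328 CPM in NOD samples against 326 and 284 CPM in C57BL/6J samples (edgeR adjusted p = 0.950). Cd52, a small glycoprotein of the lymphocyte surface, stood at 98.7 and 70.2 CPM in NOD samples against 114 and 76.8 CPM in C57BL/6J samples, with sample 1 above sample 2 in both strains.

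None of 21 members of RNA processing and translation was called (median -0.02). Khdrbs1, the RNA-binding protein Sam68 that shapes splicing in T cells, stood at 438 and 510 CPM in NOD samples against 644 and 594 CPM in C57BL/6J samples (log2 fold change -0.39 ± 0.17, edgeR adjusted p = 0.380). Its libraries did not overlap, and the difference did not pass the test. Rsrp1, an arginine- and serine-rich protein, stood at 305 and 474 CPM in NOD samples against 361 and 394 CPM in C57BL/6J samples, where the NOD samples lay on either side of the C57BL/6J samples. Srrm1, a splicing coactivator, stood at 326 and 394 CPM in NOD samples against 359 and 387 CPM in C57BL/6J samples. Syf2, a spliceosome component, stood at 131 and 128 CPM in NOD samples against 174 and 126 CPM in C57BL/6J samples. The adjusted p-values of these 3 in edgeR were 0.964, 0.950 and 0.767.

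None of 24 members of chromatin and transcription was called (median -0.03), Hdac1 having the largest positive difference of the list. Spen, a corepressor of Notch target genes, stood at 427 and 450 CPM in NOD samples against 430 and 501 CPM in C57BL/6J samples (edgeR adjusted p = 0.908). Hp1bp3, a linker-histone-like protein, stood at 382 and 437 CPM in NOD samples against 433 and 407 CPM in C57BL/6J samples (edgeR adjusted p = 0.961). Rbbp4, a histone chaperone subunit that works with Hdac1 in several complexes, stood at 269.9 and 282 CPM in NOD samples against 291 and 273 CPM in C57BL/6J samples. Its log2 fold change was -0.03 ± 0.16, with a 95% interval of -0.39 to 0.33.

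**Figure D4:**
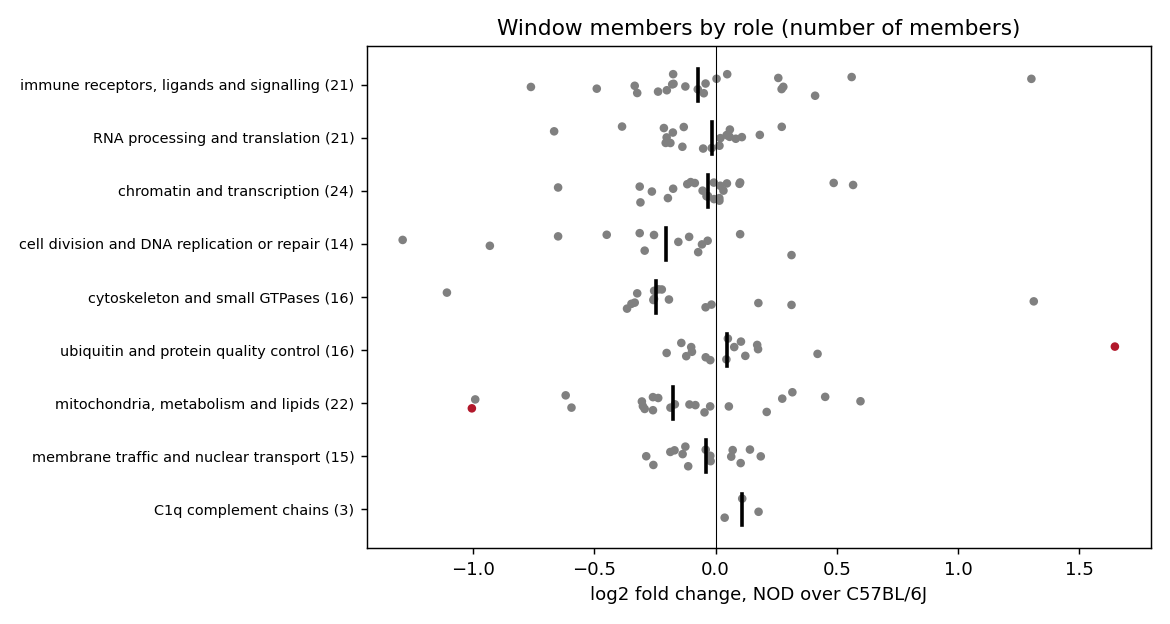
Log2 fold change, NOD over C57BL/6J, on the x axis for the members of each role list on the y axis; each point is a gene, red if called, black bars are list medians and the number of members is in parentheses (points are spread vertically at random, and a gene can stand in several lists). Ubxn11 at 1.65 and Pink1 at -1.004 are the called points, and list medians lie between -0.24 and 0.11.

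Members of cell division and DNA replication or repair differed between the NOD samples. Of 14 such members none was called, and 12 lay below 0 (median log2 fold change -0.20), against 93 of all 159 members. Every NOD library lay below every C57BL/6J library for 4 of the 14. That share was 10.1% over all members, 8.84% over all tested genes and 8.08% over tested protein-coding genes. Within NOD, 12 of the 14 were higher in sample 2 than in sample 1 (median log2 ratio 0.66), against 110 of all 159 members (0.13), 18 of 22 of the mitochondria, metabolism and lipid members (0.22) and 19 of 24 of the chromatin and transcription members (0.09). Within C57BL/6J, 3 of the 14 were higher in sample 2 than in sample 1 (median -0.09), against 57 of all 159 members (-0.08). Of 17070 tested genes with reads in every sample, 8048 were higher in sample 2 within NOD (-0.03) and 8428 within C57BL/6J (-0.009). The members as a whole thus also leaned towards NOD sample 2. E2f2, an E2F transcription factor of the cell cycle, stood at 189 and 337 CPM in NOD samples against 254 and 236 CPM in C57BL/6J samples (edgeR adjusted p = 0.930). Rcc2, a chromosome condensation regulator of mitosis, stood at 131 and 209 CPM in NOD samples against 268 and 264 CPM in C57BL/6J samples (-0.65 ± 0.22, edgeR adjusted p = 0.209). Rcc2 was lower in both NOD samples, but the call rests on the sample: leaving out NOD sample 2 gave an adjusted p of 0.000762 in edgeR, and leaving out NOD sample 1 gave 0.743.

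NOD sample 1 was also the lowest sample for other members of the list, picked here after their values were seen. Rcc1, the nucleotide exchange factor of Ran, stood at 11.7 and 27.4 CPM in NOD samples against 22.7 and 25.9 CPM in C57BL/6J samples. It had 3265 reads and is overlapped on the same strand by the small nucleolar RNA genes Snora73b (9038 reads) and Snora73a (6727 reads). Snhg3 (358 reads) also overlaps it on that strand. Rpa2, a subunit of the single-stranded DNA binding complex, stood at 18.01 and 35.8 CPM in NOD samples against 30.5 and 26.1 CPM in C57BL/6J samples. Nudc, a dynein-associated protein of mitosis, stood at 42.8 and 70.8 CPM in NOD samples against 79.7 and 75.3 CPM in C57BL/6J samples. In each, NOD sample 1 was the lowest of the 4 samples, as it was in the proliferation markers outside the window. Mki67 stood at 326 and 2070 CPM in NOD samples against 1590 and 2127 CPM in C57BL/6J samples. NOD sample 2 lay above both C57BL/6J samples in E2f2, Rcc1 and Rpa2, but below both in Rcc2 and Nudc. In Cep85, Sfn, Stmn1 and Fam76a of the same list, NOD sample 1 was not the lowest sample. The part of proliferation in the strain differences of this list was not tested. Without NOD sample 2, which leaves the low sample as the only one of NOD, 10 members were called lower and 1 higher, with 1389 of 17200 genes called in all. With NOD sample 1 left out 1 member was called lower and 1 higher, with 863 of 17060 genes called in all.

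**Figure D5:**
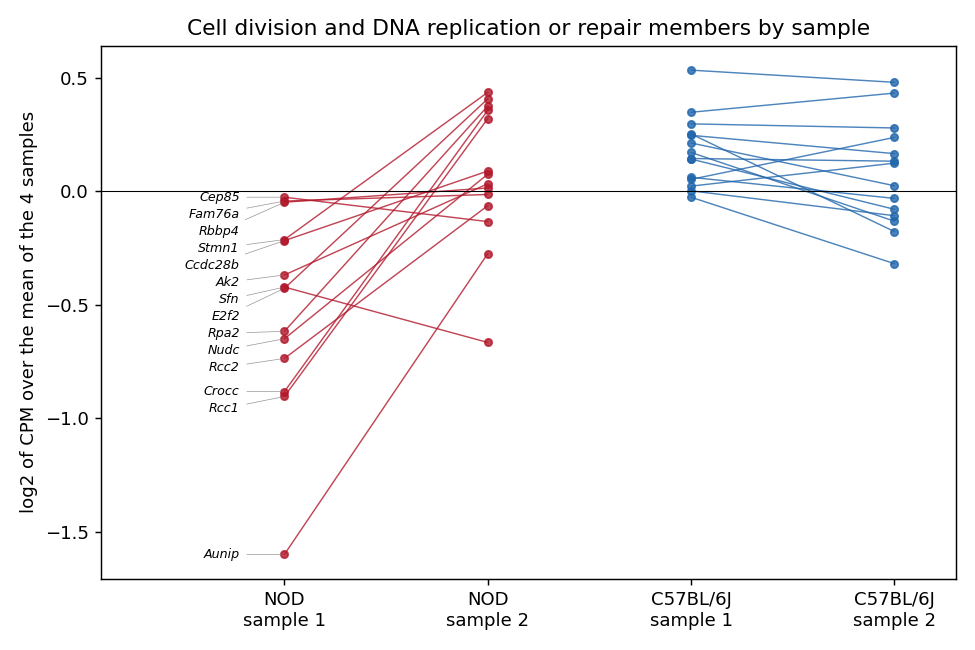
Log2 of the CPM over the mean of the 4 samples on the y axis, for the 14 members of cell division and DNA replication or repair, by summed sample on the x axis; each line joins the 2 samples of a strain for 1 gene, red for NOD and blue for C57BL/6J. Of the 14 genes, 12 are higher in NOD sample 2 than in NOD sample 1, and 3 are higher in C57BL/6J sample 2 than in C57BL/6J sample 1.

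Cytoskeleton members were mostly below 0 without a call. Of 16, 13 lay below 0 (median log2 fold change -0.24). Epb41, the membrane skeleton protein 4.1R, stood at 621 and 599 CPM in NOD samples against 792 and 760 CPM in C57BL/6J samples (-0.35 ± 0.16, 95% interval -0.71 to 0.02, edgeR adjusted p = 0.425), with no overlap of libraries. Stmn1, the microtubule-destabilising protein stathmin, stood at 175 and 275 CPM in NOD samples against 199 and 163 CPM in C57BL/6J samples, the NOD samples differing most (edgeR adjusted p = 0.696). Cdc42, a regulator of cell polarity, stood at 197 and 195 CPM in NOD samples against 212 and 185 CPM in C57BL/6J samples (edgeR adjusted p = 0.982). Sh3bgrl3, a small thioredoxin-like protein, stood at 116 and 146 CPM in NOD samples against 168 and 136 CPM in C57BL/6J samples.

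Of 16 members of ubiquitin and protein quality control, Ubxn11 was called higher and none lower (median 0.05). Ubr4, a very large ubiquitin ligase of the N-degron pathway, stood at 627 and 657 CPM in NOD samples against 536 and 704 CPM in C57BL/6J samples (edgeR adjusted p = 0.951). Usp48, a deubiquitinase, stood at 202 and 186 CPM in NOD samples against 154 and 207 CPM in C57BL/6J samples (edgeR adjusted p = 0.899). Dnajc8, a J-domain protein of the spliceosome, stood at 149 and 145 CPM in NOD samples against 199 and 139 CPM in C57BL/6J samples (edgeR adjusted p = 0.798). In these 3 the C57BL/6J samples lay on either side of the NOD samples.

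Of 22 members of mitochondria, metabolism and lipids, Pink1 was called lower and none higher (median log2 fold change -0.18, 6 above 0 and 16 below). Dhrs3, a retinal reductase that limits retinoic acid synthesis, stood at 209.7 and 179 CPM in NOD samples against 147 and 137 CPM in C57BL/6J samples, 1.37-fold higher (0.45 ± 0.17, 95% interval 0.08 to 0.83, edgeR adjusted p = 0.250). Every NOD library lay above every C57BL/6J library, and the difference did not pass the test. Ece1, the endothelin-converting enzyme, stood at 72.8 and 79.4 CPM in NOD samples against 93.3 and 88.6 CPM in C57BL/6J samples (edgeR adjusted p = 0.611). Atpif1, the inhibitor of mitochondrial ATP synthase, stood at 82.8 and 89.3 CPM in NOD samples against 85.6 and 63.1 CPM in C57BL/6J samples (edgeR adjusted p = 0.769).

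None of 15 members of membrane traffic and nuclear transport was called (median -0.04), and their log2 fold changes, from -0.29 to 0.19, spanned the narrowest range of the 8 lists with more than 3 members. Tmem50a, a small membrane protein next to the Rh blood group gene, stood at 123 and 104 CPM in NOD samples against 116 and 94.7 CPM in C57BL/6J samples (edgeR adjusted p = 0.895). A further 22 members stood in no list, and of these Padi3 was called.

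Per length of exon, the most abundant members over the 4 samples were Sh3bgrl3 at 172 CPM per kb, Laptm5 at 130 and Rsrp1 at 114 CPM per kb. Stmn1 stood at 106, Tmem50a at 86.2, Khdrbs1 at 85.2, Cd52 at 75.7, Ptp4a2 at 70.9, Syf2 at 68.3 and Cdc42 at 66.5 CPM per kb. None of these 10 was called, and the median over the members was 8.83 CPM per kb, against 5.50 over tested protein-coding genes. Of the called genes, Pink1 stood at 17.04 CPM per kb in NOD and 34.2 in C57BL/6J, Ubxn11 at 3.65 in NOD and 1.16 in C57BL/6J, and Padi3 at 0.263 in NOD and 1.21 in C57BL/6J.

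The 3 chains of complement C1q, which macrophages make and thymocytes do not, lie side by side in the window and serve as a check on other cells in the sort. C1qa stood at 1.43 and 2.05 CPM in NOD samples against 1.99 and 1.09 CPM in C57BL/6J samples. C1qb stood at 1.05 and 2.42 CPM in NOD samples against 2.39 and 1.01 CPM in C57BL/6J samples, and C1qc at 1.61 and 2.17 CPM in NOD samples against 2.39 and 1.13 CPM in C57BL/6J samples. The samples of the strains overlapped in all 3, and none was called (edgeR adjusted p of 0.933, 0.989 and 0.961). The 10 myeloid markers were all detected at a low summed level of 64.5 to 66.7 CPM in NOD samples against 41.5 to 52.6 CPM in C57BL/6J samples, and 1 of them, the growth factor receptor gene Csf1r, was called higher in NOD, at 3.82 and 3.298 CPM in NOD samples against 0.839 and 0.446 CPM in C57BL/6J samples (log2 fold change 2.47, edgeR adjusted p = 0.0233). The 7 B cell markers summed to 13.97 to 15.3 CPM in NOD samples against 11.7 to 20.8 CPM in C57BL/6J samples, and none was called. None of the 8 mature single-positive markers was called, nor any of the 4 of 6 markers each that could be tested for dendritic cells, erythroid cells and thymic epithelium. Their summed levels were 21.1 to 23.7 CPM (dendritic), 3.63 to 9.67 CPM (erythroid) and 47.6 to 69.0 CPM (epithelial) in NOD samples, against 11.1 to 13.5, 1.54 to 5.57 and 41.3 to 46.9 CPM in C57BL/6J samples. Most of each sum came from a single gene: Cst3 (myeloid), Cd79b (B cell), Cd74 (dendritic), Hbb-bs (erythroid) and Ly75 (epithelial). Ly75 stood at 39.9 and 61.3 CPM in NOD samples against 40.1 and 37.0 CPM in C57BL/6J samples. Cst3 stood at 42.1 and 34.5 CPM in NOD samples against 37.6 and 27.4 CPM in C57BL/6J samples. The sums therefore do not measure the share of a cell type. The part of other cells in the members' strain differences was not tested.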

How the data were processed

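Sorted double-positive thymocytes were profiled by stranded total RNA-seq in 8 libraries, 4 of NOD/ShiLtJ and 4 of C57BL/6J. The authors deposited raw counts of reads per Ensembl gene; the submitters' processing notes name GRCm38, the aligner STAR (2.5.0a) and the counter HTSeq (0.6.1). The annotation release, strand setting and duplicate removal are not given in the sources used here, and GRCm38 is a C57BL/6J genome. Reads outside annotated genes (46.56% to 59.08% of the reads listed in NOD libraries, 39.98% to 53.94% in C57BL/6J libraries) were not used.

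Symbols, gene types, coordinates and exon lengths came from GENCODE M21 (53274 of 53465 identifiers matched). Libraries with the same strain and B number were summed (2 samples per strain). Libraries sharing a B number differed by more than counting noise. Genes were filtered with filterByExpr, scaled by TMM and tested with the edgeR 4.0.16 quasi-likelihood test (robust, strain as the only term) in R 4.3.3, two-sided, Benjamini-Hochberg over 17291 genes; 95% intervals used the t distribution of the fit. DESeq2 1.42.0 and limma 3.58.1 were alternatives. In simulated data with 2 samples per strain, the fit called 2.1% of genes with a 1.5-fold change. It called 27.1% of those with a 2-fold and 81.6% of those with a 4-fold change. CPM are TMM-scaled. Counts limit precision for low genes, and intervals cover the spread between samples.

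Named genes were the called members, the 4 nearest above the threshold, the 10 most abundant per kb, the 3 most abundant of each list, the C1q chains, the first and last member, and the 5 largest uncalled differences at a mean of at least 1 CPM. The members and lists were chosen with earlier results of these data known. A gene of the double-positive marker list, and the sum over that list, are not reported here.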

Additional observations from a re-analysis of the deposited data

Results flagged for a closer look

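For the 40 named members, the 4 libraries of each strain were searched for 1 that lay far from the other 3 (by the Dixon criterion for 4 values), in 80 groups, where chance marks about 1 in 20 and libraries sharing a B number are not independent. There were 3 such libraries. Rsrp1 was at 343 CPM in the first library of C57BL/6J sample 1, with the next at 392 CPM. C1qa was at 0.891 CPM in the first library of NOD sample 1, with the next at 1.98 CPM. Rsg1 was at 0.344 CPM in the second library of NOD sample 1, with the next at 0.661 CPM. None of the 3 genes was called.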

How the results depend on the processing

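Of the 159 members, 140 were called in no fit and 16 only in 1 or more of the 17 alternatives; Ubxn11, Pink1 and Padi3 kept their direction in all 17. Without the filter on low counts, 1188 genes were called over all genes, with 2 members higher and 5 lower. Treating the 8 libraries as separate samples, which counts libraries of 1 sample as independent, gave 1535 genes, with 3 members higher and 11 lower. The libraries labelled T2 alone gave 342 genes and 0 members lower. The number of members called lower was 4 with DESeq2 (937 of 17291 genes called in all) and 4 with limma-voom (752 of 15227), and 1 with the stricter filter (1 CPM in 2 samples), without the robust option, with the libraries labelled T1 alone and at a read minimum of 500. With the genes left out by name put back, 2 genes were higher. Leaving out 1 sample at a time gave 256 to 1389 genes, 0 to 1 member higher, 0 to 10 members lower and a median log2 fold change of -0.14 to 0.04; a lone sample is then assumed to vary like the other strain. The strains share B numbers, but nothing says that a number pairs them, and the deviations of same-numbered samples were not positively correlated (correlation -0.123 over 17291 genes). With the replicate block, 1 member was called higher and 0 lower, with adjusted p of 0.0644 for Pink1 and 0.0785 for Padi3 and 513 genes over all; with the numbers crossed, chosen after seeing the data, 1 was higher and 2 lower. Causes of these differences were not tested, beyond the fewer samples or genes that some settings use. Members under 1 CPM rest on few reads, where only large changes could be called.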

Other observations

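Several candidate genes of Idd9 lie distal to the window, Tnfrsf1b and Tnfrsf8 next to its edge and Mtor, Pik3cd and Tnfrsf9 farther along the chromosome, and are given as values. Tnfrsf8, which encodes CD30, stood at 13.6 and 18.7 CPM in NOD samples against 8.35 and 6.40 CPM in C57BL/6J samples (log2 fold change 1.13 ± 0.29, edgeR adjusted p = 0.0778), higher in both NOD samples without passing the test. Tnfrsf1b, the TNF receptor 2 gene, stood at 11.7 and 13.99 CPM in NOD samples against 16.6 and 14.5 CPM in C57BL/6J samples (edgeR adjusted p = 0.771). Tnfrsf9, the costimulatory receptor CD137, stood at 4.74 and 3.44 CPM in NOD samples against 1.37 and 3.16 CPM in C57BL/6J samples (edgeR adjusted p = 0.541). Pik3cd stood at 95.05 and 143 CPM in NOD samples against 86.9 and 84.02 CPM in C57BL/6J samples (edgeR adjusted p = 0.372), and Mtor at 136 and 135 CPM in NOD samples against 111 and 138 CPM in C57BL/6J samples (edgeR adjusted p = 0.866).

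Of 50 tested genes of the window that are not protein-coding, 2 were called higher and 1 lower, against 3.68% of all tested genes. Gm26226, annotated as a small nuclear RNA, lies within Padi2 on the same strand and stood at 4.32 and 1.90 CPM in NOD samples against 0.398 and 0.284 CPM in C57BL/6J samples (log2 fold change 3.18 ± 0.60, edgeR adjusted p = 0.0195), the opposite direction to Padi2. Gm25732, annotated as a miRNA, stood at 7.19 and 7.496 CPM in NOD samples against 1.55 and 1.01 CPM in C57BL/6J samples (2.52 ± 0.39, edgeR adjusted p = 0.00792). Gm13213, a processed pseudogene, stood at 0.335 and 0.212 CPM in NOD samples against 2.43 and 1.42 CPM in C57BL/6J samples (-2.81 ± 0.55, edgeR adjusted p = 0.0250). Genes of these kinds exist in similar copies, so their counts are uncertain.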
